A study of Mus musculus with 2 samples.

Results

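Runx1, Runx2 and Runx3 encode the 3 DNA-binding subunits of core binding factor, and Cbfb encodes CBFβ, the subunit they share. These 4 of the 31053 genes in the deposited tables were taken by gene symbol, and each was found once. They are described here in cells of the mouse embryo from 2 single-cell RNA sequencing libraries, 1 from stage E10.5 and 1 from stage E11.5 (days of embryonic development). Both libraries came from embryos of the C57BL/6 strain and held the dorsal aorta with tissue around it together with the fetal liver. The labels named no mutation, treatment or cell sort, and how many embryos were pooled was not given in the sources used here. The series concerned precursors of haematopoietic stem cells, which arise from endothelium of the dorsal aorta at about these stages.

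RUNX proteins bind DNA through the Runt domain, and CBFβ, which does not touch DNA itself, strengthens that binding and protects RUNX from degradation. Runx1 is needed for blood cells to emerge from haemogenic endothelium and later for platelets and lymphoid cells, Runx2 is the master regulator of bone-forming cells, and Runx3 acts in T cells and in sensory neurons of the dorsal root ganglia. Both activation and repression are known, depending on whether a RUNX protein recruits acetyltransferases or corepressors of the Groucho (Tle) and ETO (Runx1t1, Cbfa2t3) families.

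The 3 Runx genes carry a shared stretch of sequence at their upstream promoters, which is printed because few other promoters hold it, and that of Cbfb does not. The windows ran from 250 bases before to 50 bases after each start in RefSeq (GRCm38.p6), and all 4 genes had at least 1 window, 6 in total. Capitals mark the longest run that the upstream windows of the 3 Runx genes share (18 bases), read on the strand of the gene. It holds 2 copies of AACCACA, which contains the reverse complement of TGTGGT, the core that RUNX proteins bind.
Runx1, chr16:92826025-92826054 (minus strand): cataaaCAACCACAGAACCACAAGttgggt
Runx2, chr17:44814583-44814612 (minus strand): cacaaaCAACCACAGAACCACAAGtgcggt
Runx3, chr4:135120503-135120532 (plus strand): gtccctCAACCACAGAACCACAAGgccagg

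In Runx1 and Runx2 the run began 27 and 22 bases after the start, and in Runx3 it began 136 bases before it (position -136). Of 32851 windows over 27025 genes, 4 held the run on either strand (0.0122%), and the fourth belonged to Gm16225. The run was chosen from the Runx windows, so its presence in them is not a finding. How often other runs of this length recur was not tested. The other windows of Runx1 and Runx3, and the Cbfb window, did not hold these letters. The shorter TGTGGT was present on either strand in 16.8% of all windows, so its 2, 3 and 2 copies in the upstream windows of Runx1, Runx2 and Runx3 and its 0 copies in the Cbfb window are a description of these letters and not of binding. The assay reads the 3' end of a transcript, so transcripts from the upstream and the downstream promoter of a gene were counted together.

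On GRCm38, Runx1 (ENSMUSG00000022952) lies on chromosome 16 from 92601466 to 92826149, Runx2 (ENSMUSG00000039153) on chromosome 17 from 44495987 to 44814797, both on the minus strand. Runx3 (ENSMUSG00000070691) lies on chromosome 4 from 135120652 to 135177990 and Cbfb (ENSMUSG00000031885) on chromosome 8 from 105170674 to 105217989, both on the plus strand. Runx2 overlaps genes on the other strand, mainly Supt3, with 3270 and 3413 UMIs in the E10.5 and E11.5 libraries, and Runx2os1, with 49 and 129 UMIs. The strand setting of the counting is not given in the sources used here, so how far reads of these genes entered the Runx2 count was not tested. For Runx1 and Runx3 the overlapping antisense genes had at most 2 UMIs in a library.

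After filtering, 8009 cells were left at E10.5 (median 15470 UMIs) and 8976 at E11.5 (median 13134.5 UMIs), and 21 barcodes occurred in both sets. A level is the summed count of UMIs (unique molecular identifiers, 1 per captured transcript) of a gene in a class of cells, per 1000000 UMIs in that class (CPM, with haemoglobin and mitochondrial genes left out of the total). Each stage had 1 library, so stages are set side by side with no test, and the 95% intervals cover counting error alone. A library and a stage cannot be told apart, and fewer cells with a transcript and less RNA per cell cannot be told apart in a summed level. Cells were clustered without the members and their pathway lists, clusters were called by their likeness to marker genes, and 4 broad classes were formed: blood (252 and 1267 cells at E10.5 and E11.5), endothelium (363 and 209), nephric (463 and 203) and mesenchyme (3685 and 3807). All 12 endothelial markers were at 20 CPM or more in endothelium at both stages, as were 10 of 12 nephric markers in nephric cells, 8 and 9 of 10 blood markers in blood, and 19 and 18 of 19 mesenchymal markers in mesenchyme. Blood clusters and vessel clusters have their own numbering, so the plots write B4 for blood cluster 4, V1 for vessel cluster 1 and C37 for cluster 37 among the rest.

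Over all cells, Cbfb was the most frequent of the 4 genes and Runx1 the most frequent Runx gene. Cbfb had 6928 UMIs in the E10.5 library and 6508 in the E11.5 library, or 55.2 and 50.01 CPM. Runx1 had 928 and 3461 UMIs (7.39 and 26.6 CPM), Runx2 had 262 and 1164 (2.09 and 8.94 CPM) and Runx3 had 5 and 126 (0.04 and 0.97 CPM). Every Runx gene was thus higher in the E11.5 library while Cbfb was slightly lower, and the number of Cbfb UMIs for each Runx UMI was 5.80 in the first library and 1.37 in the second. The 2 libraries did not hold the same mixture of cells, so the sections that follow take the classes apart.

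**Figure D1:**
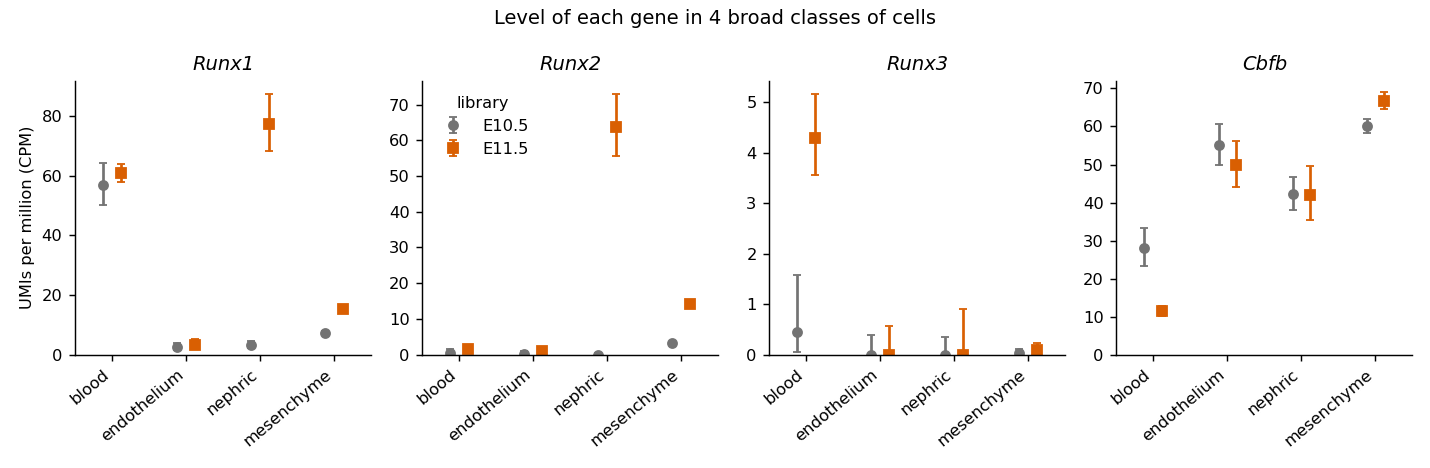
Level of Runx1, Runx2, Runx3 and Cbfb (vertical axes, CPM, each panel with its own scale) in blood, endothelium, nephric cells and mesenchyme of the E10.5 library (circles) and the E11.5 library (squares), with exact 95% Poisson intervals (for a count of 0, up to the level that 3 counts would give). Runx1 was near 60 CPM in blood at both stages and was 3.18 and 77.6 CPM in nephric cells, where Runx2 had 0 and 63.8 CPM, while Cbfb was 27.99 and 11.51 CPM in blood.

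In blood, the Runx1 levels of the libraries overlapped within counting error, Runx3 was higher at E11.5 and Cbfb was lower, but the Runx1 and Cbfb values moved with how the level was computed. Runx1 had 56.8 CPM at E10.5 (50.1 to 64.2) and 61.0 at E11.5 (58.1 to 64.0), a log2 ratio of E11.5 over E10.5 of 0.10 (-0.09 to 0.30). Cbfb had 27.99 CPM (23.3 to 33.3) and 11.51 CPM (10.3 to 12.9), which is 2.43-fold lower (log2 -1.28, -1.58 to -0.97). The Runx1 intervals overlapped and the Cbfb intervals lay apart. With classes taken from the marker UMIs of each cell, with CPM over all genes and as a mean over cells, the log2 ratio was 0.71, 0.62 and 0.64 for Runx1, above its interval, and -0.38, -0.77 and -0.88 for Cbfb, which is then less than 2-fold lower. Runx3 had 2 and 115 UMIs, or 0.44 and 4.30 CPM (log2 3.30, 1.41 to 6.36), and Runx2 had 2 and 41 UMIs, a log2 ratio whose interval spans 0 (1.81, -0.14 to 4.90). All 4 members had at least 20 UMIs in blood. Of them, 2 were at least 2-fold higher at E11.5 and 1 was at least 2-fold lower, beside 9.9% and 5.84% of the 12097 genes with at least 20 UMIs. For Runx2 the ratio was under 2-fold with doublets kept (log2 0.91) or with the listed genes kept in the clustering (0.82). The median log2 ratio of all such genes was 0.13 in blood, 0.04 in endothelium, 0.18 in nephric cells and 0.25 in mesenchyme, and ratios are to be read against it.

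The blood class mixes red cells, which make up most of it, with the nucleated white and platelet lineages, and the members differed between them. In red cells of all kinds (188 and 932 cells) Runx1 had 7.31 CPM at E10.5 and 29.6 CPM at E11.5 (log2 2.02, 1.39 to 2.72), beside 17.7% of genes at least 2-fold higher there. In the other blood cells (64 and 335) it had 140.4 CPM (123 to 159) and 135 CPM (127 to 144). Runx1 therefore stood higher outside the red cells at both stages, and the rise in red cells came with a change of cluster: 180 of the 188 cells at E10.5 were in primitive red cell-like blood cluster 0, while definitive red cell-like and erythroid-like clusters held most of those at E11.5. In primitive red cell-like cells alone (181 and 183), which carry the embryonic globins of the yolk sac, Runx1 had 19 and 9 UMIs, or 6.90 and 9.64 CPM, with a log2 interval that spans 0 (-0.85 to 1.70). Among E11.5 clusters Runx1 had 37.6 CPM in erythroid-like blood cluster 11, 29.2 in erythroid-like blood cluster 7 and 25.6 in definitive red cell-like blood cluster 9.

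Cbfb was low in every red cell cluster and was lower at E11.5 in the remaining blood cells as well. Its level in red cells was 5.92 CPM at E10.5 and 4.14 CPM at E11.5, with a log2 interval that spans 0 (-1.29 to 0.34). In the other blood cells it was 65.2 CPM (53.6 to 78.5) and 28.98 CPM (25.4 to 33.0), a log2 ratio of -1.17 (-1.50 to -0.83), beside 4.01% of genes at least 2-fold lower. The cells behind these sums differed: at E10.5 they were 13 haemogenic or cluster-like, 30 granulocyte or monocyte progenitor-like, 9 megakaryocyte-like, 1 macrophage-like and 11 of the unnamed blood cluster 2, and at E11.5 they were 3, 71, 109, 80 and 72. Within the granulocyte or monocyte progenitor-like cells alone, Cbfb had 73.4 CPM (55.0 to 96.0) and 51.1 CPM (40.7 to 63.2), and these intervals overlap. How much of the lower level in blood came with the change in the mixture of lineages was not tested.

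The 13 haemogenic or cluster-like cells at E10.5, the cells nearest to the emergence of blood in these data, had the highest Runx1 level of the clusters, with an interval that overlaps that of macrophage-like blood cluster 12. They held 125 Runx1 UMIs, or 229 CPM (191 to 273), with up to 23 in a cell. Cbfb had 44 UMIs there, or 80.7 CPM (58.7 to 108), Runx2 had 1 UMI and Runx3 had 0, which allows up to 5.50 CPM. Every one of the 13 cells had a Runx1 UMI, 11 also had a Cbfb UMI, and 92.3% of them kept a Runx1 UMI after each cell was thinned to 5000 UMIs. At E11.5 the group had 3 cells with 7 Runx1 UMIs and 5 Cbfb UMIs. The group was named from Gfi1, Hlf, Myb, Adgrg1, Kit and Neurl3, some of which lie close to Runx1 in the regulation of blood, so its high Runx1 level is not independent of its name. Myb is also on the list of targets, and its level here was a condition of the name. Of the 15 genes listed as blood targets of Runx1, 11 were at 20 CPM or more (19.4% of all genes), led by Spi1 (295 CPM), Myb (199.98 CPM) and Myl9 (88.1 CPM), and of the 11 partner factors 9 were.

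Endothelium proper had few Runx1 UMIs at either stage, while about the usual level of Cbfb was found. Runx1 had 19 UMIs in 11 of 363 cells at E10.5, or 2.45 CPM (1.48 to 3.83), and 17 UMIs in 12 of 209 cells at E11.5, or 3.17 CPM (1.84 to 5.07). The log2 ratio was 0.37 with an interval that spans 0 (-0.66 to 1.39). With classes taken from the marker UMIs of each cell it was 2.87, from levels of 1.66 and 12.1 CPM. At E10.5 the cell with the most held 7 UMIs and the next held 3, the 3 highest cells held 57.9% of the UMIs, and 9 of the 11 cells had 1 UMI each. Of these 11 cells 6 were in arterial-like vessel cluster 1 (122 cells, 12 UMIs, 6.95 CPM, 3.59 to 12.1), the kind of endothelium that lines the aorta, and 3 were in endothelium-like vessel cluster 4. Cbfb had 55.1 CPM (49.98 to 60.6) and 49.9 CPM (44.1 to 56.3), with a log2 interval that also spans 0 (-0.37 to 0.08). Runx2 had 2 and 5 UMIs, and Runx3 had 0 at both stages, which allows up to 0.39 and 0.56 CPM. Of the 2 members with at least 20 UMIs in endothelium, 0 were 2-fold higher or lower, beside 3.7% and 2.46% of 11514 genes.

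Some Runx1 UMIs in such cells can come from free RNA, which droplets take up from broken cells. Hepatoblast-like cells, the liver epithelium, are not known to express Runx1, and they had 1 and 7 Runx1 UMIs, or 0.38 and 0.80 CPM, in 1.27% and 2.42% of cells. These cells were deeper (median 34844 and 33468 UMIs) than endothelium (13390 and 19866), where 3.03% and 5.74% of cells had a Runx1 UMI. After thinning, the share was 0% in hepatoblast-like cells at both stages and 2.30% and 1.10% in endothelium. The intervals of the level overlapped at E10.5 (0.0096 to 2.11 CPM in hepatoblast-like cells) and lay apart at E11.5 (0.32 to 1.64 CPM). Hepatoblast-like cells were among the lowest in Runx1, and nephric-like cluster 10 (3.18 CPM) and mesenchyme-like cluster 1 (4.24 CPM) were above endothelium at E10.5. How much of the endothelial value was free RNA was not tested.

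Cells with UMIs of both Runx1 and Cdh5, the cadherin of endothelial junctions, came to 38 in the E10.5 library and 53 in the E11.5 library, and they lay in different clusters. At E10.5, 13 were the haemogenic or cluster-like cells and 11 were endothelium, of which 1 also had a UMI of Ptprc (the pan-leukocyte antigen CD45) or Spi1 (the myeloid factor PU.1). At E11.5, 11 were among the 26 cells of macrophage-like blood cluster 6, all with Ptprc or Spi1, and 12 were endothelium, of which 1 had either. Others lay outside blood and endothelium. Among them were 4 cells of smooth muscle or mural-like cluster 6 and 3 of mesenchyme-like cluster 4 at E10.5. At E11.5 they included 6 cells of unnamed cluster 35 and 3 of mesenchyme-like cluster 0. UMIs of both genes were thus not particular to blood and endothelium. Cdh5 was on the list from which the haemogenic group was named, so its presence there is not a finding. Of the double-positive endothelial cells, 8 of 11 and 9 of 12 had a Cbfb UMI.

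**Figure D2:**
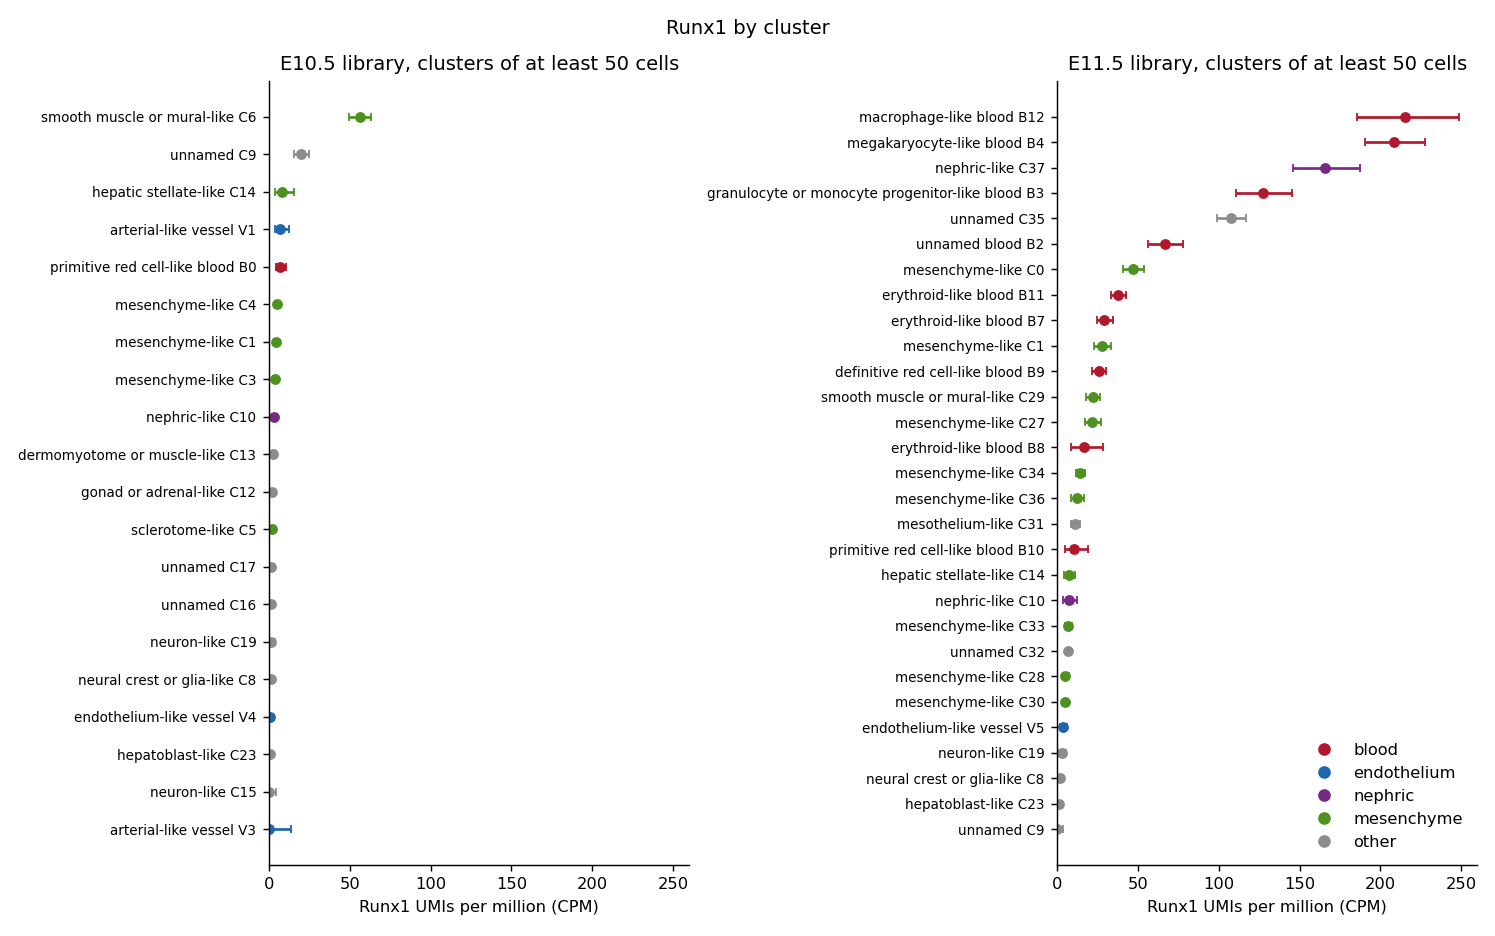
Runx1 level (horizontal axis, CPM) in every cluster with at least 50 cells in the E10.5 library (left, 20 clusters) and the E11.5 library (right, 29 clusters), with exact 95% Poisson intervals and colours for the broad class. Smooth muscle or mural-like cluster 6 led at E10.5 with 56.2 CPM, and at E11.5 a nephric-like cluster (C37, 166 CPM) and the unnamed cluster 35 (107 CPM) stood among the blood clusters.

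Ordered by Runx1, the clusters with at least 50 cells gave different leaders at the 2 stages. At E10.5 the median over 20 clusters was 2.37 CPM and 18 were under 10 CPM, and the exceptions were few: smooth muscle or mural-like cluster 6 had 56.2 CPM (49.7 to 63.3) and unnamed cluster 9 had 19.9 CPM (15.6 to 25.0). At E11.5 the median over 29 clusters was 13.9 CPM, and 13 clusters were at 20 CPM or more. Macrophage-like blood cluster 12 (54 cells) led with 215 CPM (186 to 249), followed by megakaryocyte-like blood cluster 4 (109 cells) with 208 CPM (190.3 to 227), whose intervals overlap. Nephric-like cluster 37 had 166 CPM (146 to 188), granulocyte or monocyte progenitor-like blood cluster 3 had 127 CPM (110.4 to 146) and unnamed cluster 35 had 107 CPM (98.8 to 117). Of neighbours in the order, 17 of 19 pairs at E10.5 and 24 of 28 at E11.5 had overlapping intervals, so most ranks are not separate from the next. Unnamed cluster 11, whose cells were shallow, was left out of these orders.

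In the blood lineages of E11.5, Runx1 came with different amounts of its paralogs and of Cbfb. Megakaryocyte-like cells, which shed platelets and depend on Runx1 for their maturation, had Runx1 in 76.1% of cells (65.4% after thinning) and only 14.7 CPM of Cbfb (10.3 to 20.5), or 0.07 Cbfb UMIs for each Runx UMI. The 80 macrophage-like cells had Runx1 at 139.6 CPM in 67.5% of cells (48.7% after thinning) and Cbfb at 42.3 CPM (32.6 to 54.1). Their clusters differed, with 215 CPM of Runx1 in blood cluster 12 and 38.6 CPM (25.0 to 56.9) in blood cluster 6. Granulocyte or monocyte progenitor-like cells had Runx1 in 81.7% of cells and the most Runx3 of any cluster, 32.8 CPM (24.7 to 42.8) from 54 UMIs, as well as 13.4 CPM of Runx2 from 22 UMIs. Among these classes, megakaryocyte-like cells thus had the largest Runx1 level with the smallest Cbfb level, although blood cluster 12 overlapped them in Runx1. UMIs of all 4 genes were found in progenitor-like cells and in megakaryocyte-like cells, where Runx2 had 1.68 CPM and Runx3 4.63 CPM. UMIs of Cbfb were found beside Runx1 in 24 of 109 megakaryocyte-like cells, 30 of 80 macrophage-like cells and 35 of 71 progenitor-like cells.

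Runx3 in these data was mostly a gene of the E11.5 myeloid progenitors and their neighbours. Of its 126 UMIs at E11.5, 54 were in blood cluster 3 and 36 in the unnamed blood cluster 2 (15.7 CPM, 10.97 to 21.7), whose leading genes included Myb, Myc and Lmo2. A further 11 were in megakaryocyte-like blood cluster 4 (4.63 CPM) and 10 in erythroid-like blood cluster 11 (1.44 CPM). Runx3 was at 0 in 17 of 20 clusters at E10.5 and in 17 of 29 at E11.5. Cells of blood cluster 3 with a Runx1 UMI had Runx3 in 25.9% of cases and those without in 46.2%, but only 13 of 71 cells lacked Runx1, and 15 cells had both. In neuron-like cells (184 and 220), Runx3 had 0 and 2 UMIs. Most of these cells (107 and 187) were in neuron-like cluster 19, whose leading genes included Chgb, Dbh, Phox2a and Th. Which of them were sensory neurons was not tested. Isl1 was at 739 and 604 CPM in neuron-like cells. It was a marker on which their clusters were named, so its level is not a finding. Of the 14 sensory neuron and T cell genes listed around Runx3, 2 and 3 were at 20 CPM or more in neuron-like cells, Isl1 included. Ntrk3 was among them at E11.5 (88.0 CPM).

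Listed targets of Runx1 were described in the same lineages. Some of them had served to name the classes: Pf4 and Itga2b for megakaryocyte-like cells and Mpo and Elane for granulocyte or monocyte progenitor-like cells, so their levels there are not findings. In megakaryocyte-like cells 9 of the 15 listed targets were at 20 CPM or more, against 17.7% of all genes, led by the platelet genes Pf4 (21728 CPM) and Itga2b (674 CPM) and by Myl9 (395 CPM). In granulocyte or monocyte progenitor-like cells it was also 9 of 15, against 18.8% of all genes, led by the granule enzymes Mpo (1773 CPM) and Elane (367 CPM) and by Spi1 (321 CPM). Of the 11 partner factors, 9 and 8 were at 20 CPM or more in these classes, against the same shares of all genes, among them Fli1 (339 CPM) and Gata1 (190.1 CPM) in megakaryocyte-like cells. Over the whole blood class, 7 of 15 targets were at least 2-fold higher at E11.5 and 1 was lower, beside 9.9% and 5.84% of all genes, with a median log2 ratio of 0.99 against 0.13 for all genes. The mixture of lineages differed between the libraries as well, and its part was not tested.

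**Figure D3:**
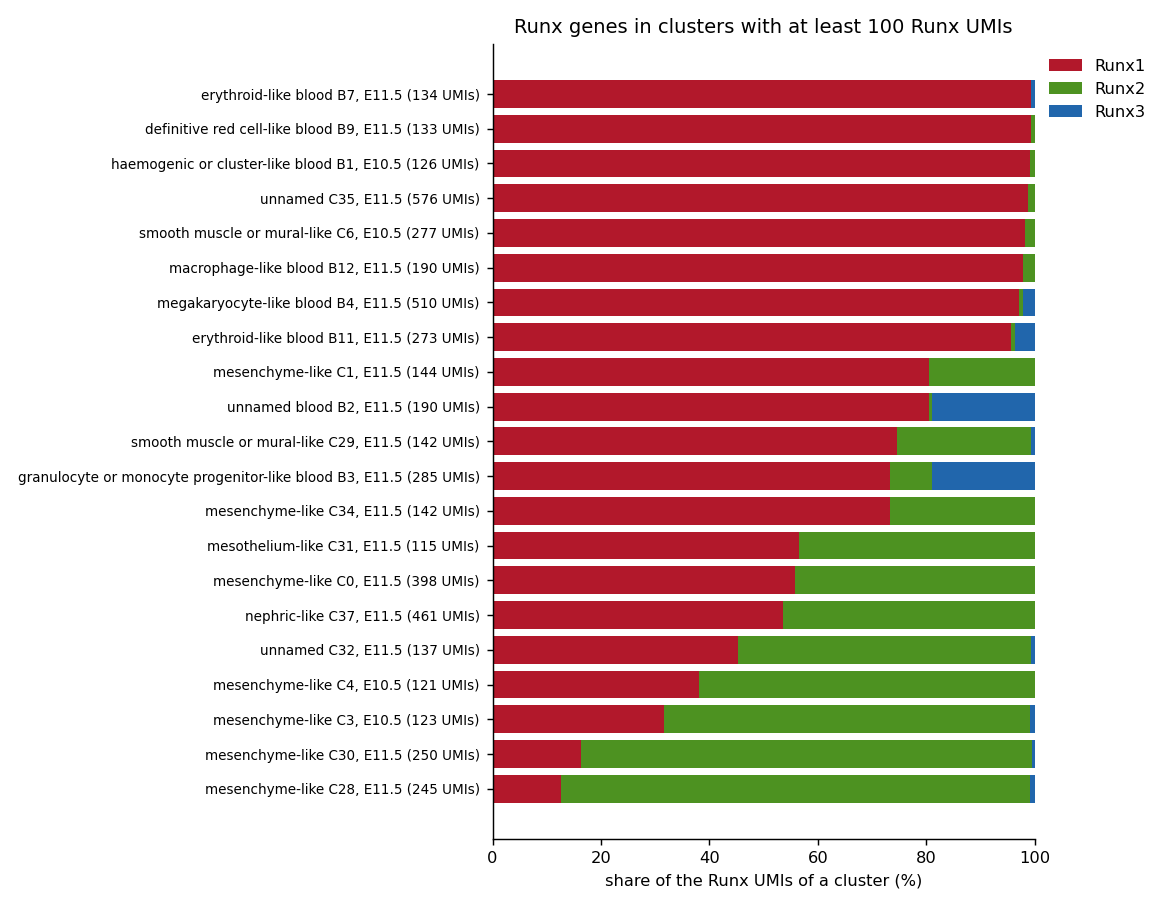
Share of Runx1, Runx2 and Runx3 (horizontal axis, %) among the Runx UMIs of each cluster with at least 100 of them, with the stage and the number of UMIs beside the name. Runx1 made up over 95% in the megakaryocyte-like, macrophage-like and unnamed cluster 35 cells, Runx3 18.9% in blood clusters 2 and 3, and Runx2 86.5% in mesenchyme-like cluster 28.

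Outside blood, the clearest differences between the libraries were in nephric cells, which line the duct and tubules of the early kidneys. Runx1 had 28 UMIs in the E10.5 library, or 3.18 CPM (2.12 to 4.601), and 260 at E11.5, or 77.6 CPM (68.4 to 87.6), a log2 ratio of 4.61 (4.04 to 5.22). Runx2 had 0 UMIs at E10.5, which allows up to 0.34 CPM, and 214 at E11.5, or 63.8 CPM (55.6 to 73.0). Against that upper limit of 3 UMIs, Runx2 was at least 187-fold higher. Both genes were far apart between the libraries, whereas Cbfb had 42.3 and 42.1 CPM (log2 -0.01, -0.30 to 0.28), and Runx3 had 0 UMIs in both. Of the 3 members with at least 20 UMIs, 2 were at least 2-fold higher and 0 lower, beside 11.4% and 3.8% of 12443 genes.

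These UMIs were nearly all in nephric-like cluster 37, which held 138 cells of the E11.5 library and 0 of the E10.5 library. It had 247 of the 260 Runx1 UMIs (166 CPM) and all 214 Runx2 UMIs (144 CPM, 125 to 164). The nephric-like cluster 10, with 463 and 65 cells, had 3.18 CPM of Runx1 at E10.5 and 6.98 CPM (3.72 to 11.9) at E11.5 from 13 UMIs, a log2 ratio of 1.13 (0.06 to 2.13), and 0 Runx2 UMIs at both stages. Without cluster 37 (an alternative added once the data were known) the log2 ratio of Runx1 in nephric cells is that of cluster 10. Of genes with at least 20 UMIs, 12.4% were at least 2-fold higher in cluster 10. Because cluster 37 was found in 1 library only, a cell type of E11.5 and a feature of that library cannot be told apart.

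Cluster 37 was called nephric-like on 4 of 12 markers, and it lacked several duct genes. Those 4 were Emx2 (365 CPM), Pax8 (162 CPM), Lhx1 (144 CPM) and Pax2 (136 CPM), transcription factors of the intermediate mesoderm and the nephric duct and tubules. Since they named the cluster, their detection there is not a finding. Cluster 10 had 231 and 192 CPM of Pax2, 172 and 125 CPM of Pax8, 227 and 103 CPM of Lhx1 and 176 and 246 CPM of Emx2. Gata3, a factor of the nephric duct, had 9.39 CPM in cluster 37 against 146 and 164 CPM in cluster 10, Wnt9b, a duct signal, had 0.67 CPM against 27.9 and 86.0 CPM, and Sim1 had 0 UMIs against 102 and 85.4 CPM. In cluster 37 Pax8 and Lhx1 thus lay between the 2 values of cluster 10, Emx2 above them and Pax2 below them, and Gata3, Wnt9b and Sim1 were far below them. Wt1, a factor of the kidney mesenchyme and podocytes, was at 158 CPM in cluster 37 and at 152 and 127 CPM in cluster 10. Runx2 was among the 10 leading genes of cluster 37, although it had been kept out of the clustering.

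**Figure D4:**
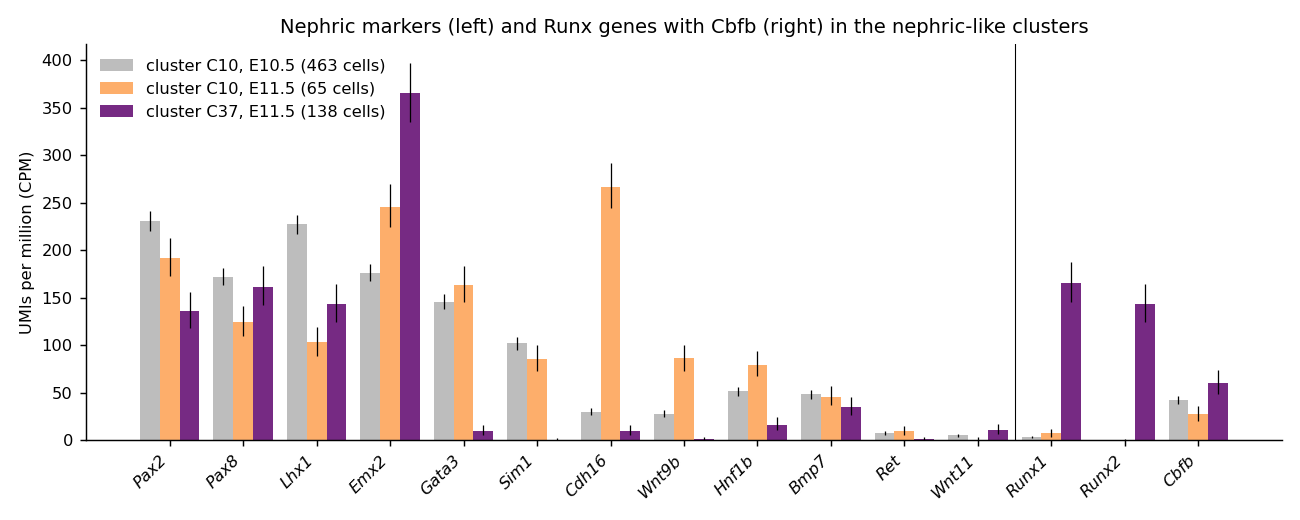
Levels (vertical axis, CPM, from 0) of 12 nephric markers (left of the line) and of Runx1, Runx2 and Cbfb (right of the line) in nephric-like cluster 10 at E10.5 and E11.5 and in nephric-like cluster 37 at E11.5, with exact 95% Poisson intervals as thin lines. Cluster 37 had Pax2, Pax8, Lhx1 and Emx2, the markers that named it, at 136 to 365 CPM, little Gata3, Sim1, Cdh16 and Wnt9b, and the only high Runx1 and Runx2.

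Many cells of cluster 37 had UMIs of both Runx1 and Runx2, and each gene alone was frequent there. A Runx1 UMI was found in 58.7% of the 138 cells and a Runx2 UMI in 71.7%, and 59 cells (42.8%, 34.4 to 51.5) had both. Runx2 was found in 72.8% of the cells with Runx1 and in 70.2% of the cells without, which are close to each other. At least 2 UMIs of each were found in 32 cells. After thinning, Runx1 was in 46.5% and Runx2 in 44.9% of cells, and 24 of 127 cells had both. Cells with a Runx1 UMI were somewhat deeper (81 cells, median 11759 UMIs) than those without (57 cells, 9130 UMIs). Cbfb had 60.4 CPM (48.5 to 74.2), and 40 of the 138 cells had UMIs of both Runx1 and Cbfb.

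Blood marker RNA in cluster 37 was far below that of the blood class and near that of other tissue in its library. The sum of 10 blood markers other than globin was 16.1 CPM there, with Ptprc, Cd53, Itga2b and Cd33 at 0 UMIs. At E11.5 it was 1119 CPM in the blood class, 15.2 CPM in mesenchyme and 9.44 CPM in hepatoblast-like cells. For each 100 UMIs of these markers, cluster 37 had 1029 Runx1 UMIs, while the blood class had 5.45, megakaryocyte-like cells 13.8 and macrophage-like blood cluster 12 had 8.09. Pf4, the most abundant platelet gene, was at 25.5 CPM in cluster 37 and at 14.0 CPM in hepatoblast-like cells of the same library. How much of the Runx1 in cluster 37 was free blood RNA was not tested. In cluster 10 at E11.5, where Runx1 had 13 UMIs with up to 6 in a cell, Pf4 had 623 UMIs (335 CPM), so blood RNA moved with the smaller value and its part in that result was not tested. Supt3, on the strand opposite to Runx2, had 47.6 CPM in cluster 37 and 46.2 CPM in mesenchyme-like cluster 28, where Runx2 had 33.9 CPM, and Runx2os1 had 12.1 and 4.48 CPM.

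Of 22 corepressors and coactivators, 21 were at 20 CPM or more, against 22.0% of all genes, with the methyltransferase Prmt1 at 576 CPM, the Groucho relative Aes at 513 CPM and Ncor1 at 253 CPM. Of the 15 blood targets 2 were, Myl9 (29.5 CPM) and Pf4, and of the 11 partner factors 2 were, Gata2 (135 CPM) and Ldb1 (76.4 CPM). Of the 17 skeletal genes around Runx2 2 were, Sox9 (89.9 CPM) and Twist1 (42.2 CPM), while the bone gene Bglap had 0 UMIs and Sp7, which acts after Runx2 in bone, had 5 UMIs. The shares of the blood and skeletal lists do not stand far from that of all genes.

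Unnamed cluster 35 (407 cells, E11.5 only) was the other large group outside blood with much Runx1. It had 569 UMIs, or 107 CPM, in 60.0% of cells and in 34.3% after thinning. Its Runx2 was at 1.32 CPM and its Runx3 at 0, so Runx1 made up 98.8% of its Runx UMIs, and Cbfb was at 50.8 CPM (44.9 to 57.2). Cluster 35 and cluster 37 thus shared a high Runx1 level but not Runx2. Of 8 gonad or adrenal markers 7 were at 20 CPM or more in cluster 35, including Nr5a1, Gata4, Wt1 and Nr0b1, but its 10 leading genes (such as Kctd14, Lgals7 and Akr1cl) did not allow a name. Its blood markers summed to 16.2 CPM, with Ptprc at 0 UMIs.

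In mesenchyme, Runx1 and Runx2 were both higher at E11.5, with Runx2 the more so, and Cbfb was nearly level. Runx1 had 468 and 811 UMIs, or 7.31 CPM (6.66 to 8.003) and 15.3 CPM (14.3 to 16.4), a log2 ratio of 1.07 (0.90 to 1.23). Runx2 had 203 and 753 UMIs, or 3.17 CPM (2.75 to 3.64) and 14.2 CPM (13.2 to 15.3), a log2 ratio of 2.16 (1.94 to 2.40). Cbfb had 60.1 CPM (58.2 to 62.0) and 66.8 CPM (64.6 to 69.0), a log2 ratio of 0.15 that lies below the median of all genes there. The Runx intervals lay far apart between the libraries, and Runx3 had 2 and 5 UMIs. Of the 3 members with at least 20 UMIs, 2 were at least 2-fold higher and 0 lower, beside 16.4% and 2.78% of 15459 genes. Runx1 passed 2-fold narrowly and was under it with Leiden resolution 2.0 (log2 0.93), with the listed genes kept in the clustering (0.98) and after centring on the median gene (0.82). Runx1 was found in 7.08% and 13.2% of cells (2.83% and 6.96% after thinning), and Runx2 in 4.21% and 12.9% (1.70% and 5.75%).

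Most mesenchymal clusters belonged to 1 library, so these ratios set different clusters side by side. Mesenchyme-like cluster 1, which had cells in both (575 and 247), moved in the same direction: Runx1 had 4.24 CPM (3.04 to 5.75) and 27.5 CPM (22.7 to 33.0), a log2 ratio of 2.70 (2.17 to 3.25), and Runx2 had 1.86 and 6.63 CPM, a log2 ratio of 1.83 (0.93 to 2.77). Cbfb had 56.2 and 68.5 CPM there (log2 0.29, 0.07 to 0.49), and 8.33% of genes were at least 2-fold higher. Blood markers, too, were higher in mesenchyme at E11.5, with a sum of 6.58 and 15.2 CPM over the class and of 6.00 and 15.6 CPM in cluster 1, and Pf4 had 4.45 and 23.2 CPM over the class. Their part in the Runx1 values was not tested. Of the 13 blood targets with enough UMIs in mesenchyme, 10 were at least 2-fold higher, beside 16.4% of all genes, at a median level of only 0.17 and 1.00 CPM over the list.

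Single clusters of E11.5 mesenchyme differed widely in which Runx gene they held. Mesenchyme-like cluster 0 (346 cells) had 46.9 CPM of Runx1 (41.0 to 53.5) and 37.2 CPM of Runx2 (31.9 to 43.1), in 26.0% and 29.8% of cells. Mesenchyme-like clusters 28 and 30 (551 and 452 cells) had 33.9 CPM (29.5 to 38.8) and 25.1 CPM (21.8 to 28.8) of Runx2 with 4.96 CPM of Runx1 each. Runx2 therefore made up 44.2%, 86.5% and 83.2% of the Runx UMIs in the 3 clusters, against 46.4% in nephric-like cluster 37. These 4 clusters were the ones with Runx2 at 20 CPM or more, out of 29, and at E10.5 the highest was 7.57 CPM in mesenchyme-like cluster 4. Capture of the 3' end can differ between genes, so a share of UMIs is not a share of molecules.

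Few cells of mesenchyme had both paralogs, and each gene alone was found in a minority of cells there. In cluster 0, 28 of 346 cells (8.09%) had Runx1 and Runx2. Runx2 was in 31.1% of its cells with Runx1 and in 29.3% of those without, which are close to each other. Over the mesenchyme of E11.5 both were found in 67 of 3807 cells (1.76%), 15 of them with at least 2 UMIs of each. Of the 17 skeletal genes, 3 were at 20 CPM or more in cluster 0 (Twist1 346 CPM, Sox9 96.4 CPM and Twist2 50.5 CPM) and 4 in cluster 28 (Twist1 507 CPM, Col2a1 202 CPM and Sox9 196 CPM the highest), against 21.4% and 21.3% of all genes. These act in skeletal and connective tissue precursors, while the bone matrix genes Bglap and Ibsp had 0 and 1 UMIs in each. Twist1 and Twist2 are also on the list of mesenchymal markers. Twist1 was among the 3 markers that named cluster 28, so its level there is not a finding. Over mesenchyme 1 of the 12 skeletal genes with enough UMIs was at least 2-fold higher at E11.5 and 3 were lower, beside 16.4% and 2.78% of all genes, with a median log2 ratio of -0.59 against 0.25 for all genes.

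Smooth muscle or mural-like cells, the contractile coat of vessels and gut, went the other way for Runx1. They numbered 271 and 309, and Runx1 had 273 UMIs, or 56.1 CPM (49.6 to 63.2), at E10.5 and 106 UMIs, or 21.9 CPM (17.9 to 26.5), at E11.5. That is 2.56-fold lower (log2 -1.36, -1.69 to -1.03), beside 3.73% of 11460 genes at least 2-fold lower and 8.18% higher. Runx2 had 5 and 35 UMIs (1.03 and 7.23 CPM; log2 2.82, 1.46 to 4.52) and Cbfb had 61.4 and 49.4 CPM (log2 -0.32, -0.57 to -0.06). Runx1 was thus lower and Runx2 higher at E11.5, and the share of Runx1 among Runx UMIs went from 98.2% to 74.6%. Cluster 6 held 270 of the 271 cells at E10.5 and cluster 29 held 307 of the 309 at E11.5, so the stage and the cluster cannot be told apart. In cluster 6, 108 of 270 cells had Runx1 (19.0% after thinning), and the blood markers summed to 7.64 CPM with Ptprc, Cd53 and Cd33 at 0 UMIs. Unnamed cluster 9 (270 and 50 cells), led by Ibsp, Zdhhc2 and Nr2f1, had 73 Runx1 UMIs at E10.5 (19.9 CPM) and 0 at E11.5, at least 6.01-fold lower, beside 12.9% of genes at least 2-fold lower there.

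**Figure D5:**
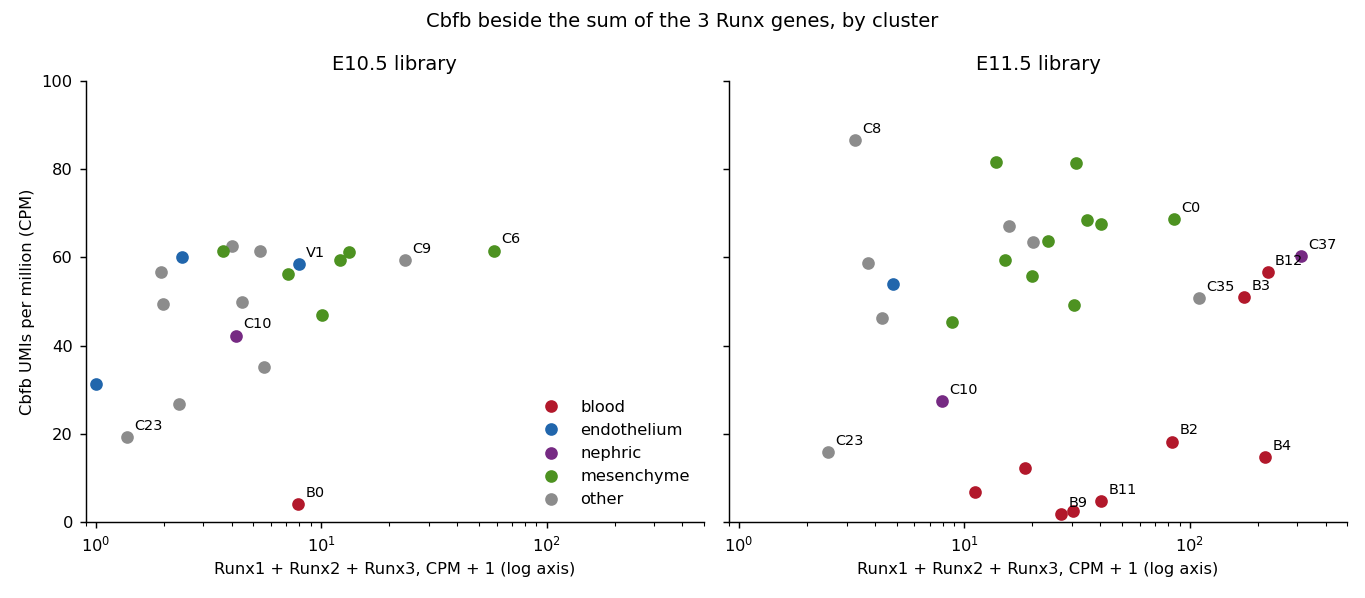
Cbfb level (vertical axis, CPM) beside the summed level of Runx1, Runx2 and Runx3 (horizontal axis, CPM plus 1, log axis) in every cluster with at least 50 cells, for the E10.5 library (left) and the E11.5 library (right), coloured by broad class. Most clusters lie between 40 and 90 CPM of Cbfb whatever their Runx level, while red cell, erythroid and megakaryocyte-like clusters, unnamed blood cluster 2 and hepatoblast-like cluster 23 lie under 20 CPM.

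Above its median, Cbfb varied far less between clusters than Runx1 did. Its spread lay below the median, down to 3.997 CPM at E10.5 and 1.75 CPM at E11.5, while Runx1 went down to 0 CPM at both stages. It was at 40 CPM or more in 15 of 20 clusters at E10.5 and 20 of 29 at E11.5, with medians of 56.4 and 53.9 CPM, and its highest value was 1.11 and 1.61 times the median, against 23.7 and 15.5 times for Runx1. The highest cluster at E11.5 was neural crest or glia-like cluster 8, with 86.5 CPM (78.5 to 95.2) against 56.7 CPM (51.0 to 62.9) at E10.5, a log2 ratio of 0.61 (0.40 to 0.82) that did not reach 2-fold. The Runx genes were nearly absent from those cells, with 6 and 8 Runx1 UMIs and 0 and 3 Runx2 UMIs. The lowest were primitive red cell-like blood cluster 0 at E10.5 (3.997 CPM, 1.995 to 7.15) and definitive red cell-like blood cluster 9 at E11.5 (1.75 CPM, 0.80 to 3.32). Cbfb UMIs for each Runx UMI thus numbered 0.07 in megakaryocyte-like cells and 0.20 in cluster 37 at E11.5, and 20.3 and 12.2 in endothelium at the 2 stages. Neural crest or glia-like cluster 8 had 60.2 and 38.1. Outside blood, the lowest of the clusters with at least 50 cells was hepatoblast-like at both stages, with 19.3 and 15.9 CPM.

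Over 58 profiles of a cluster in a library, the genes most like each member were found by the correlation of log2(CPM + 10) among 8438 genes, given as a description since profiles share a library. Most of these names depend on the pseudocount: with 1 in place of 10, 1 of the 5 genes stayed for Runx1 (Pycard), and 2 of 5 stayed for each of the others. For Runx1 they were Fyb (r = 0.73), Arhgap45, Vav1, Bin2 and Pycard (0.70). For Runx2 they were Unc13c (0.76), St8sia2, Tenm2, Smoc2 and Scx (0.64), and for Runx3 Ms4a3 (0.81), Cd37, Mpo, Prtn3 and Ptprcap (0.68). For Cbfb they were Plekho1 (0.86), Rcbtb2, 1110059E24Rik, Evl and Snx6 (0.85). Between members the correlation was 0.32 for Runx1 and Runx2, 0.30 for Runx1 and Runx3, 0.36 for Runx2 and Cbfb, and -0.11 for Runx1 and Cbfb.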

How the data were processed

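The authors deposited a matrix of UMI counts for each of 2 libraries, which were made with the 3.1 version of the 10x 3' kit, per the labels' protocols. Reads were processed with Cell Ranger 5.0.0 on mm10 (GRCm38), per the submitters' processing notes. The cell filter asked for 1000 UMIs or more, 500 genes or more and no more than 10% mitochondrial UMIs, which kept 8705 of 10996 at E10.5 and 9756 of 12289 at E11.5. Scrublet called 0 doublets with its own cut-off, and the top 8% by its score were taken out instead (696 and 780 cells).

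Counts were scaled to 10000 per cell, log-transformed and clustered (scanpy 1.11.5, 2000 variable genes per library, 40 principal components, 15 neighbours, Leiden resolution 1.0), with vessel and blood clusters clustered again. Naming took 3 or more markers of a type, each at 20 CPM or more and 3-fold over the mean elsewhere (pseudocount 20 CPM). Among the 10 leading genes, no other tissue could have more markers than that type. Mesenchyme-like clusters 1, 3, 4, 30 and 36 were named in a further step, with the mean of named clusters of other tissues as the reference. This gave names to 43 of 51 clusters. Members and lists were chosen with earlier results of these data known. From each list the 2 or 3 genes with the highest CPM were named, Bglap, Sp7, Ibsp and the overlapping genes being added after their values were seen. Clusters outside the 4 broad classes were described where a member was highest or lowest.

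Intervals at 95% are exact: Poisson for levels, Clopper-Pearson for shares, conditional for ratios. A count of 0 was read as at most 3 counts per class and library. Ratios used classes with at least 50 cells per library. Cells were thinned to 5000 UMIs, leaving out shallower ones (102 and 28 in endothelium, 218 and 187 in mesenchyme). Interval code was tested on simulated data. The alternatives tried were a floor of 2000 UMIs, a mitochondrial limit of 5%, doublets kept, Leiden resolution 2.0, classes from each cell's markers, clustering with the listed genes, CPM with every gene in the total, ratios centred on the median gene, the mean over cells, a lower count minimum for the background, and a pseudocount of 1. No p-value is given, because cells from 1 library do not replicate a stage. Protein sequences were not used here.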

Additional observations from a re-analysis of the deposited data

Results flagged for a closer look

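The direction of the stage ratio differed between classes for Runx1 and Cbfb. None of these differences was tested, since each stage had 1 library. Runx1 was higher at E11.5 in nephric cells and lower in smooth muscle or mural-like cells, and their log2 ratios differed by 5.96. In the broad mesenchyme class, which contains the smooth muscle or mural-like cells, Runx1 was higher at E11.5, and the log2 ratio lay 2.42 above that of the smooth muscle or mural-like cells. Cbfb was slightly higher in mesenchyme and lower in blood, with log2 ratios 1.43 apart. The direction in mesenchyme turns to -0.093 after centring on the median gene, so it rests on the scaling. Cbfb was also lower in smooth muscle or mural-like cells, with a log2 ratio 0.47 below that of mesenchyme.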

How the results depend on the processing

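The stage ratios of the members in the 4 broad classes were recomputed under the alternatives, giving 100 values for 11 ratios, of which 85 stayed within the counting interval of the reported ratio, 82 of them with the same sign. Among ratios whose interval lies off 0, 1 changed sign: after centring the log2 ratios of all genes on their median, Cbfb in mesenchyme was at -0.093. Among ratios whose interval spans 0, Runx1 in blood was -0.028 after that centring, and Cbfb in nephric cells was 0.234 with the 5% mitochondrial limit and 0.027 with the listed genes kept. Centring on the median gene also gave 0.82 for Runx1 and 1.92 for Runx2 in mesenchyme. With classes from each cell's own markers the values were 0.71 for Runx1 and -0.38 for Cbfb in blood, 2.87 for Runx1 in endothelium and 5.51 for Runx1 in nephric cells, and Runx2 in blood had no value. With CPM over all genes, Runx1 in blood was 0.62 and Cbfb in blood -0.77. As the mean over cells they were 0.64 and -0.88, and Cbfb in mesenchyme was 0.055. With doublets kept, Runx1 in blood was 0.30. Without nephric cluster 37, chosen after the data had been seen, Runx1 in nephric cells was 1.13 and Cbfb -0.63. The cause of these shifts was not tested. Cells with at least 2000 UMIs, a mitochondrial limit of 5%, Leiden resolution 2.0 and the listed genes kept in the clustering moved none of the 11 ratios out of its counting interval, though Runx1 in mesenchyme fell under 2-fold with the last 2 (0.93 and 0.98) and Runx2 in blood with the last (0.82). With 1 UMI in each library as the minimum, genes at least 2-fold lower in blood were 1691 in place of 707, those higher and lower in endothelium 1111 and 780 in place of 426 and 283, those higher in nephric cells 2805 in place of 1416 and those lower in mesenchyme 815 in place of 429. With a pseudocount of 1, the 5 most like genes shared 1, 2, 2 and 2 with those at 10 for Runx1, Runx2, Runx3 and Cbfb. Depth limits Runx1 in endothelium (19 and 17 UMIs) and Runx3 outside blood. No paired analysis was possible because each stage had 1 library.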
